A study of Mus musculus with 10 samples.

Results

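Protein kinase C is a family of serine and threonine kinases, and 8 of its genes were followed here among the 54838 gene identifiers counted in each library: the conventional isoforms Prkca and Prkcb, the calcium-independent isoforms Prkcd, Prkce, Prkch and Prkcq, and the atypical isoforms Prkci and Prkcz. They were chosen by gene symbol, with the dorsal and ventral counts of these same libraries already known, so their differences between the groups are descriptions and carry no test. All 8 were among the 16806 genes that passed the expression filter, a CPM above 1 in at least 2 libraries, with CPM meaning counts relative to the scaled size of each library.

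The libraries held RNA bound to EGFP-tagged ribosomes, precipitated by translating ribosome affinity purification (TRAP) from mouse hippocampus to compare mossy cells, the excitatory neurons of the dentate hilus, along the dorsoventral axis. Both groups carried the same genotype, Drd2-Cre;Eef1a1LSL.eGFPL10a/+, on the C57BL/6 strain (C57BL/6J for the breeding, per the study's methods), and came from male mice of about 10 weeks that received no treatment. The 5 Dorsal libraries came from the dorsal part of the hippocampus and the 5 Ventral libraries from the longer remaining part, from which the ventral subiculum had been removed. Each library was a pool of 5 mice, so a replicate was a pool and not an animal. Hippocampi of 1 set of mice were divided into both parts, so dorsal and ventral pools shared animals, and the sources do not say which pools did. The tests below treat the pools as independent. The Drd2-Cre driver also marks sparse interneurons of the CA fields and neurons of the ventral subiculum, so the precipitates were enriched for mossy cells and not pure.

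Conventional isoforms are activated by calcium together with diacylglycerol, the lipid that phospholipase C releases downstream of Gq-coupled receptors. Calcium-independent isoforms need only diacylglycerol, and atypical isoforms respond to neither and are recruited by scaffold proteins of cell polarity and autophagy. In hippocampal neurons the family is known for its part in synaptic plasticity and transmitter release, and Prkcd is also known as an abundant transcript of the thalamus and the lateral central amygdala.

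Upstream sequences are shown for the 3 members that passed the rule for a difference between the groups, Prkca and Prkcd on the dorsal side and Prkci on the ventral side. They are RefSeq sequences of GRCm38.p6, read 5′ to 3′ on the strand of the gene, and span the 200 bases that end 51 bases before the annotated start, so that no transcribed base is shown. Capitals mark the GC box, GGGCGG on either strand.
Prkca, minus strand, chr11:108343939-108344138: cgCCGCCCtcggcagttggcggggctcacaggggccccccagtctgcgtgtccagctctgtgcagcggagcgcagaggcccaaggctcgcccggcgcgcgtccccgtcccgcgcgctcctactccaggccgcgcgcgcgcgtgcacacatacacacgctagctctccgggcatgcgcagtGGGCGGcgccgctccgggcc
Prkcd, minus strand, chr14:30626259-30626458: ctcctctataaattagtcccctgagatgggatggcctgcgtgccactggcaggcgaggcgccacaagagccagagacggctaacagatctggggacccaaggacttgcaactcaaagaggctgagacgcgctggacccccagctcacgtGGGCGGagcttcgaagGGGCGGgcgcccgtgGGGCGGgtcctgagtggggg
Prkci, plus strand, chr3:30995521-30995720: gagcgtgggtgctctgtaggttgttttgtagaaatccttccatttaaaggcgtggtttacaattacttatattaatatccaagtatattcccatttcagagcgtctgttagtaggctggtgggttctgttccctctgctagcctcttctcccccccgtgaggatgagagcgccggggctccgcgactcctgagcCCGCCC

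The 3 windows differ in composition. The Prkca window was 76.5% G or C with 29 CpG dinucleotides, the Prkcd window 65% with 13, and the Prkci window 51.5% with 9, beside medians of 51.5% and 4 over the 32851 windows of this length in the table. Prkcd held 3 GC boxes, Prkca 2 and Prkci 1, and 24.6% of all windows held at least 1. RefSeq lists a second start for Prkcd, whose window (chr14:30610361-30610560) held no GC box and no CpG. TATAAA, searched on both strands, occurred in the first Prkcd window and in 9.14% of all windows. TGANTCA, the phorbol ester response element that AP-1 factors bind, and TGACGT, the core of the cAMP response element, occurred in none of the 9 windows of the 6 members in the table. Prkcb, Prkcq and Prkcz were the other members in the table, and the first Prkcz window alone of the 9 held CCAAT, 4 times on either strand, against 28.4% of all windows with at least 1. These matches describe letters in a window and not binding.

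Counts on genes ranged from 11138676 to 20594364 per library, and 3 counts, taken as the smallest level that can be read, corresponded to 0.146 to 0.269 CPM. The share of read pairs on no gene was 27.0 ± 5.09% in dorsal and 14.4 ± 3.0% in the ventral group (SD, n = 5 each, two-sided exact permutation p = 0.00794, which is as low as 5 against 5 can give), without overlap, so it moves with the groups. Its part in the differences was not tested beyond a fit with it as a covariate, which lowered the number of pathway genes called from 10 to 5 on the dorsal and from 7 to 1 on the ventral side. Ventral replicates 2 and 3 stood apart from the other ventral libraries for several members. Log2 fold changes are also given without replicate 2 for Prkcd and without replicate 3 for Prkci and Prkcz. Levels, shares and ratios include both libraries. Levels of Calb2, which encodes calretinin, a marker of ventral mossy cells, were 49.7 to 73.9 CPM in dorsal and 529 to 726 CPM in ventral libraries, and the groups did not overlap.

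Enrichment was called where edgeR's quasi-likelihood test gave an adjusted p below 0.05 and the mean CPM plus 1 of the groups differed by more than 0.58 on the log2 scale. By this rule 15.7% of the 16806 tested genes passed as dorsal-enriched and 9.85% as ventral-enriched, and 9.81% and 8.36% had dorsal libraries all above or all below the ventral ones. Of the 8 members, Prkca and Prkcd were called dorsal-enriched, Prkci was called ventral-enriched, and 5 were not called. The dorsal and ventral libraries did not overlap for the 3 called members and overlapped for the other 5. Nothing is read from these numbers, since the members were chosen with this contrast known.

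**Figure D1:**
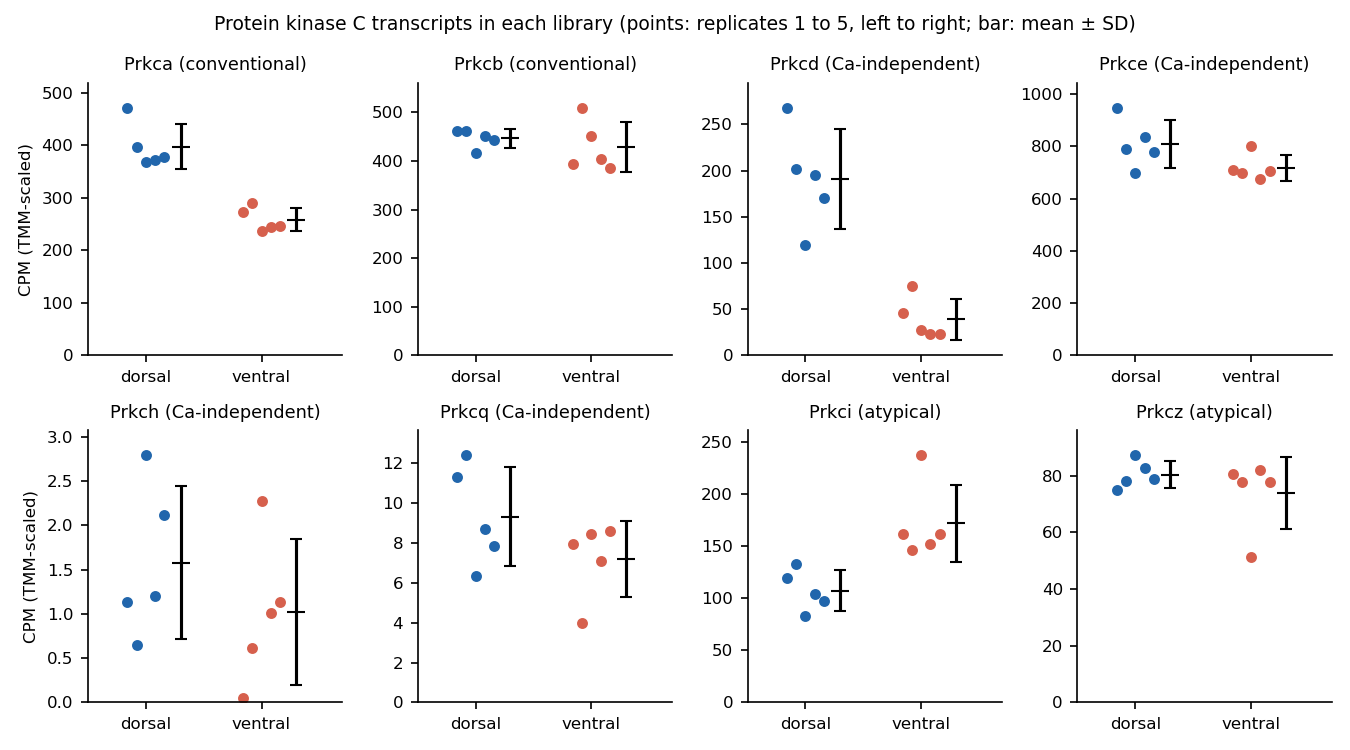
Each panel plots the CPM (linear axis from 0) of 1 isoform in the 5 dorsal (blue) and 5 ventral (red) libraries, replicates 1 to 5 from left to right, with the mean and SD beside them. The dorsal points lie wholly above the ventral ones for Prkca and Prkcd and wholly below them for Prkci, while the other 5 isoforms overlap.

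Prkcd, on the minus strand of chromosome 14 (30595354 to 30626210, GRCm38), had the largest difference of the family. Its dorsal libraries held 268, 201, 119, 195 and 171 CPM in the order of replicates 1 to 5, and its ventral libraries 45.7, 75.3, 27.3, 23.3 and 22.5 CPM. The lowest dorsal library was above the highest ventral one, and ventral replicate 2 was the highest of its group. The means were 191 ± 54.0 and 38.8 ± 22.5 CPM (SD, n = 5 each), a log2 fold change of dorsal over ventral of 2.33 ± 0.30 (SE), or 5.03-fold. By the absolute log2 ratio Prkcd ranked 122 among all tested genes. These are bulk precipitates, in which fewer cells that carry the transcript and less of it per cell cannot be told apart.

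The replicates of Prkcd varied more than those of most genes. Its coefficient of variation was 28.3% among dorsal libraries, higher than in 97.0% of the 1894 genes within 2-fold of its mean level, whose median was 11.6%. Among ventral libraries it was 57.9%, higher than in 98.9% of 3964 such genes. Prkcb lay at the other end in the dorsal group, with 4.17%, a spread as small as that of 6.44% of genes of like level. In level, Prkcd stood at the 92.4th percentile of tested genes in the dorsal and at the 68.1st in the ventral group. With 1 library left out at a time its log2 fold change ran from 2.17 to 2.68, the highest without ventral replicate 2, and it was called dorsal-enriched in all 28 alternative settings.

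Prkca, which encodes the alpha isoform, lies on the minus strand of chromosome 11 (107933387 to 108343928). The dorsal libraries held 472, 397, 369, 373 and 378 CPM and the ventral libraries 273, 289, 237, 244 and 247 CPM. All dorsal libraries were above all ventral ones, and dorsal replicate 1 was well above the other dorsal libraries. The log2 fold change was 0.62 ± 0.10 (SE), or 1.54-fold, close to the threshold of the call. Without dorsal replicate 1 it was 0.56 and was no longer called. After a correction for GC content and exon length it was 0.46, also not called, but this correction moved the median of all genes to -0.17, and relative to that median Prkca stood at 0.63.

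Prkcb encodes the beta isoforms, and its levels did not separate the groups. The dorsal libraries held 461, 461, 416, 451 and 443 CPM and the ventral libraries 394, 510, 452, 403 and 385 CPM. Its log2 fold change was 0.06 ± 0.09 (SE). The level ratio of Prkca to Prkcb within a library ran from 0.827 to 1.02 in dorsal and from 0.525 to 0.694 in ventral libraries, again without overlap, on the scale of CPM and thus not corrected for length.

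Prkce, the calcium-independent isoform known for presynaptic functions, was the most abundant member. The dorsal libraries held 948, 789, 698, 836 and 778 CPM and the ventral libraries 708, 699, 799.7, 674 and 704 CPM. Dorsal replicate 3 was below 4 of the ventral libraries and ventral replicate 3 above 3 of the dorsal ones, and the log2 fold change was 0.18 ± 0.09 (SE). Its exons overlap another gene model over 6.5% of their length, which leaves its counts uncertain, since the sources do not say whether the counting used strand.

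Prkcq and Prkch, best known from lymphocytes and epithelia, were scarce. Prkcq had 11.3, 12.4, 6.34, 8.71 and 7.86 CPM in dorsal and 7.93, 3.96, 8.44, 7.09 and 8.59 CPM in ventral libraries. The groups overlapped, and the log2 fold change was 0.33 ± 0.25 (SE). Prkch rested on 1 to 41 counts per library, with 1.58 ± 0.863 CPM in dorsal and 1.02 ± 0.821 CPM in the ventral group (SD, n = 5 each). Ventral replicate 1, with 1 count, was under the level of 3 counts. The log2 fold change of 0.70 ± 0.58 (SE) turned to -1.24 ± 1.05 with the share of pairs on no gene as a covariate, so that its direction cannot be read at this depth.

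Prkci, the iota isoform of the atypical class, was the member that was higher on the ventral side. The dorsal libraries held 119, 133, 82.8, 104 and 97.7 CPM and the ventral libraries 162, 146, 238, 152 and 162 CPM. The highest dorsal library, replicate 2, was below the lowest ventral one, which was also replicate 2. On the log2 scale the fold change was -0.68 ± 0.16 (SE), with ventral libraries 1.60-fold higher. Ventral replicate 3 decides the call, since without it the log2 fold change was -0.54 and Prkci was not called, although the remaining ventral libraries were still above all dorsal ones. It was also not called with the share of pairs on no gene as a covariate, at -0.78 ± 0.30 (SE).

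Prkcz, the zeta isoform, did not separate the groups. The dorsal libraries held 75.2, 78.2, 87.4, 82.9 and 78.7 CPM and the ventral libraries 80.8, 77.7, 51.3, 81.9 and 77.8 CPM. The library that was highest for Prkci, ventral replicate 3, was thus the lowest for Prkcz. The log2 fold change was 0.12 ± 0.13 (SE), and 0.02 without that library, the lowest value with 1 library left out. The level ratio of Prkci to Prkcz in CPM ran from 0.948 to 1.70 in dorsal and from 1.85 to 4.63 in ventral libraries, and the value of 4.63 came from ventral replicate 3.

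Levels of different genes can be set beside each other only per length, and CPM was therefore divided by the kilobases of exon of each gene. In both groups Prkce led with 112 ± 12.7 CPM per kilobase in dorsal and 98.7 ± 6.63 in ventral libraries, followed by Prkcb with 58.3 ± 2.43 and 56.0 ± 6.81 (SD, n = 5 each). The 2 leaders did not overlap each other in either group. The places behind them differed. In dorsal libraries Prkca came next with 44.2 ± 4.77, then Prkcd with 34.4 ± 9.74 and Prkci with 19.3 ± 3.5 CPM per kilobase. In ventral libraries Prkci came next with 31.0 ± 6.72, then Prkca with 28.7 ± 2.46, Prkcz with 11.7 ± 2.02 and Prkcd with 7.0 ± 4.05.

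Several neighbours in this order did not differ beyond their spread. The dorsal ranges of Prkca and Prkcd overlapped, as did those of Prkcd and Prkci, although each library kept that order. The ventral ranges of Prkci and Prkca overlapped, with Prkci above Prkca in 3 of 5 libraries, and those of Prkcz and Prkcd overlapped, with Prkcz above Prkcd in 4 of 5. Ventral replicate 3 was highest of its group for Prkci (42.8 CPM per kilobase) and lowest for Prkca (26.4). It decides the order of the ventral means of Prkci and Prkca. Prkcq and Prkch stood last in both groups, Prkcq at 1.32 ± 0.352 and 1.02 ± 0.269 and Prkch at 0.21 ± 0.115 and 0.135 ± 0.109 CPM per kilobase in dorsal and ventral libraries.

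**Figure D2:**
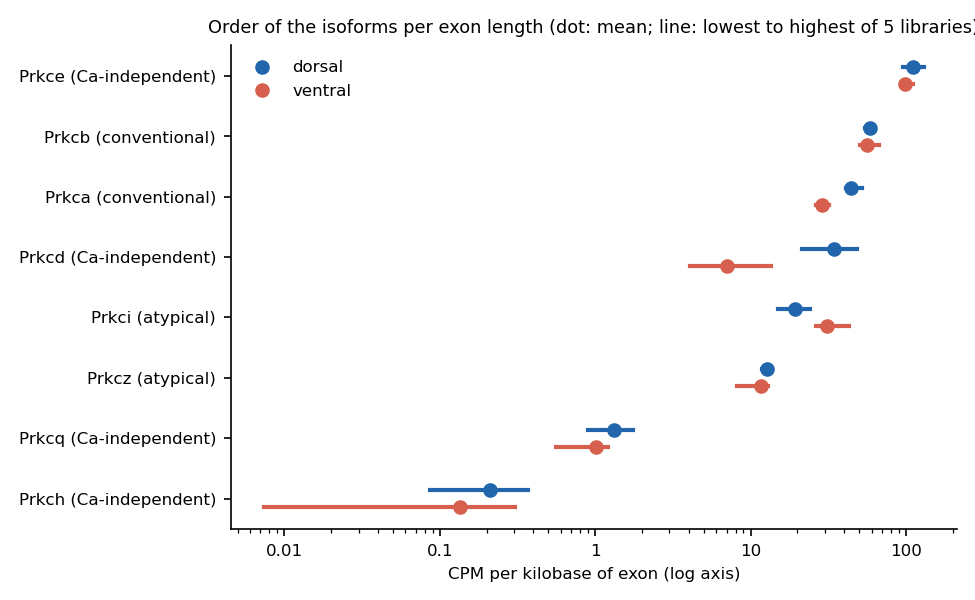
CPM per kilobase of exon (log axis) of each isoform in dorsal (blue) and ventral (red) libraries, with the mean as a dot and a line from the lowest to the highest of 5 libraries. Prkce and Prkcb lead in both groups, while the Prkcd range lies at 21.5 to 48.3 in dorsal and at 4.06 to 13.6 in ventral libraries. The low end of Prkch in ventral libraries is a single count.

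The summed level of the 8 members was 282 ± 30.5 CPM per kilobase in the dorsal and 234 ± 15.4 in the ventral group (SD, n = 5 each), with ranges of 243 to 327 and 218 to 253 that overlapped. Within that sum Prkcd took 12 ± 2.16% in dorsal and 2.95 ± 1.59% in ventral libraries. Prkci went the other way, from 6.84 ± 0.859% in dorsal to 13.2 ± 2.30% in ventral libraries. Prkca took 15.7 ± 0.844% and 12.3 ± 1.09%, Prkcb 20.8 ± 1.46% and 23.9 ± 1.82%, Prkce 39.5 ± 1.04% and 42.2 ± 1.98%, and Prkcz 4.58 ± 0.741% and 5.04 ± 1.08%. Prkcq and Prkch together stayed under 1%. Shares within a sum are tied to each other, so a larger share of 1 isoform lowers the others.

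By class, the conventional isoforms Prkca and Prkcb made up nearly equal shares, 36.5 ± 1.82% in dorsal and 36.2 ± 2.30% in ventral libraries. Calcium-independent isoforms took 52.1 ± 2.41% and 45.6 ± 0.819%, and atypical isoforms 11.4 ± 0.897% and 18.2 ± 1.65%. The ranges of the calcium-independent class, 48.9% to 55.3% and 44.6% to 46.4%, did not overlap, and neither did those of the atypical class, 10.2% to 12.6% and 15.6% to 20.1%. The shares depend on the length used. With the length of the longest transcript Prkcd took 15.6% in dorsal libraries, and with the coding length 8.89%.

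**Figure D3:**
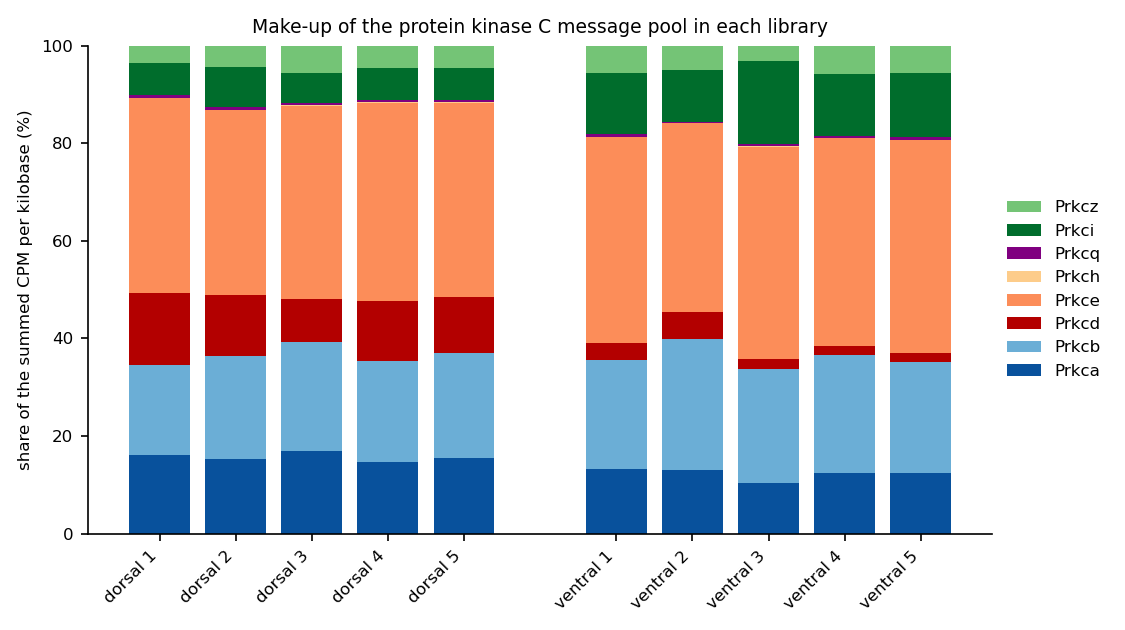
Stacked bars give the share (percent) of each isoform in the summed CPM per kilobase of the 8 members, 1 bar per library. Prkcd (dark red) spans 8.83% to 14.8% in the dorsal bars and 1.83% to 5.48% in the ventral bars, while Prkci (dark green) spans 6.14% to 8.34% and 10.6% to 16.9%.

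Markers of other cell types and regions were read in the same libraries because Prkcd is abundant in tissue next to the dissected hippocampus. The summed CPM of 16 thalamus markers was 1208 to 1382 in dorsal and 862 to 1057 in ventral libraries (two-sided exact permutation p = 0.00794, adjusted over 12 marker lists p = 0.0238). Most of this difference was Zic1, since the sums of the other 15 markers, taken after seeing the data, were 847 to 929 and 826 to 1007 CPM and overlapped. Zic1, a transcription factor gene of the medial thalamus and other midline structures, had 453, 464, 359, 413 and 399 CPM in dorsal and 43.4, 190, 37.8, 36.1 and 34.9 CPM in ventral libraries, with a log2 fold change of 2.66 ± 0.40 (SE, edgeR, adjusted p = 0.000366). Ventral replicate 2 was thus highest of its group for both Zic1 and Prkcd.

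Other thalamus markers went both ways. Slc17a6, which encodes the vesicular glutamate transporter of thalamic relay neurons, was lower in dorsal libraries, with 11.5 ± 1.76 against 29.8 ± 4.64 CPM (SD, n = 5 each, edgeR, adjusted p = 0.00011). Rgs16 was lower as well, with a log2 fold change of -1.26 ± 0.38 (SE, edgeR, adjusted p = 0.0224, and 0.417 with the share of pairs on no gene as a covariate), and Nefm had -0.41 ± 0.12 (SE) and was not called. Tcf7l2 was on the dorsal side, with 14.4 ± 2.40 against 8.93 ± 4.32 CPM (SD, n = 5 each), and was not called (edgeR, adjusted p = 0.0595). Its log2 fold change was 0.70 ± 0.27 (SE), and 0.18 ± 0.52 with that covariate. Synpo2 (0.71 ± 0.32) and Tnnt1 (0.58 ± 0.40, SE) were also above 0 and not called. The markers Shox2 and Gbx2 were at or near 0, with means of at most 0.0332 CPM in either group. Of the 14 markers tested, 9 had log2 fold changes above 0, and the median of the 14 was 0.24. Among the 14, 2 were called dorsal-enriched, Zic1 and Plcb4, and Slc17a6 and Rgs16 ventral-enriched. Without ventral replicate 2 the log2 fold change of Prkcd was 2.68 ± 0.26 (SE), larger than with it. The part of thalamic tissue in the Prkcd difference was not tested.

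Glial markers also moved between the groups. The summed CPM of 8 oligodendrocyte markers was 2884 ± 165 in dorsal and 1305 ± 355 in ventral libraries, and that of 8 astrocyte markers 2122 ± 116 and 1199 ± 214 (SD, n = 5 each, two-sided exact permutation p = 0.00794, adjusted p = 0.0238 for each list), without overlap. Mal, Cldn11 and Mbp of myelin were called dorsal-enriched, Mal with a log2 fold change of 1.07 ± 0.18 (SE, edgeR, adjusted p = 0.000891). With the share of pairs on no gene as a covariate these 3 lost their calls, and 1 of the 5 dorsal calls in the oligodendrocyte list and 1 of 5 in the astrocyte list were kept. Of the astrocyte genes, the glutamate transporter gene Slc1a2 (1.03 ± 0.12, SE) and the connexin gene Gjb6 (1.48 ± 0.19, not called with that covariate) were called dorsal-enriched, Aldh1l1 (-1.72 ± 0.49) was called ventral-enriched, and Aldoc (-0.56 ± 0.13) and Gja1 (0.56 ± 0.30) were not called. The part of glial RNA in the levels of the members was not tested.

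The list of 12 mossy cell markers summed to 654 ± 32.5 CPM in the dorsal and 1311 ± 120 CPM in the ventral group (SD, n = 5 each, two-sided exact permutation p = 0.00794, adjusted p = 0.0238). The widest differences were at Calb2, with means of 65.2 and 616 CPM, and Satb1, with 270 and 450 CPM. Calb2 was listed as a known ventral marker, so the direction of the sum was partly set by the list. The sum therefore does not measure the amount of mossy cell RNA. Of the 10 markers tested, 4 had log2 fold changes above 0, and 2 were called dorsal-enriched and 3 ventral-enriched. Cyp26b1, a dorsal marker, had 60.5 ± 7.43 and 28.9 ± 5.30 CPM, Ociad2 177 ± 12.7 and 147 ± 13.6 CPM, and Gal 0.138 ± 0.129 and 2.89 ± 1.89 CPM. Interneuron markers were abundant in both groups, Gad2 with means of 2853 and 3174 CPM, and all 10 had log2 fold changes below 0, with a median of -0.43. Of these, Sst (-0.66 ± 0.11), Lhx6 (-0.76 ± 0.13) and Pvalb (-0.63 ± 0.14, SE) were called ventral-enriched, 4 others had an adjusted p below 0.05 with a smaller change, and 0 were called with the share of pairs on no gene as a covariate. The part of interneuron RNA in the levels of the members was not tested. Summed markers of 8 other lists, among them interneurons, habenula, central amygdala, granule cells and choroid plexus, did not pass the exact test after adjustment. Of the 8 central amygdala markers, Isl1 and Crh, the latter with overlapping groups, were called dorsal-enriched and 6 were not called. Isl1 had 2.62 ± 0.47 (SE, edgeR, adjusted p = 0.00125) and Crh 1.83 ± 0.60 (adjusted p = 0.0304). With that covariate the call of Isl1 was kept and that of Crh was not. Isl1 and Crh were highest of the ventral group in replicate 2, at 6.25 and 4.93 CPM. The part of central amygdala RNA was not tested. Of the 8 choroid plexus markers, Kl (0.98 ± 0.30, SE, edgeR, adjusted p = 0.0236) and Clic6 (1.46 ± 0.32, adjusted p = 0.00394) were nevertheless called dorsal-enriched, with overlapping groups, and both calls were kept with that covariate. Within the dorsal group Kl and Clic6, picked after their values were seen, ranked the libraries as Prkcd did, with replicate 1 highest and replicate 3 lowest. Folr1, Kcne2 and Calml4 were also highest in replicate 1. Ttr (893 CPM), Prlr, Otx2 and the sum of the list (1052 CPM) were highest in dorsal replicate 2 instead. All 8 markers were lowest in dorsal replicate 3. Kl ran from 67.4 CPM in dorsal replicate 1 to 17.7 CPM in dorsal replicate 3, and in the ventral group its order was another one, with replicate 2 lowest. The part of choroid plexus RNA was not tested.

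**Figure D4:**
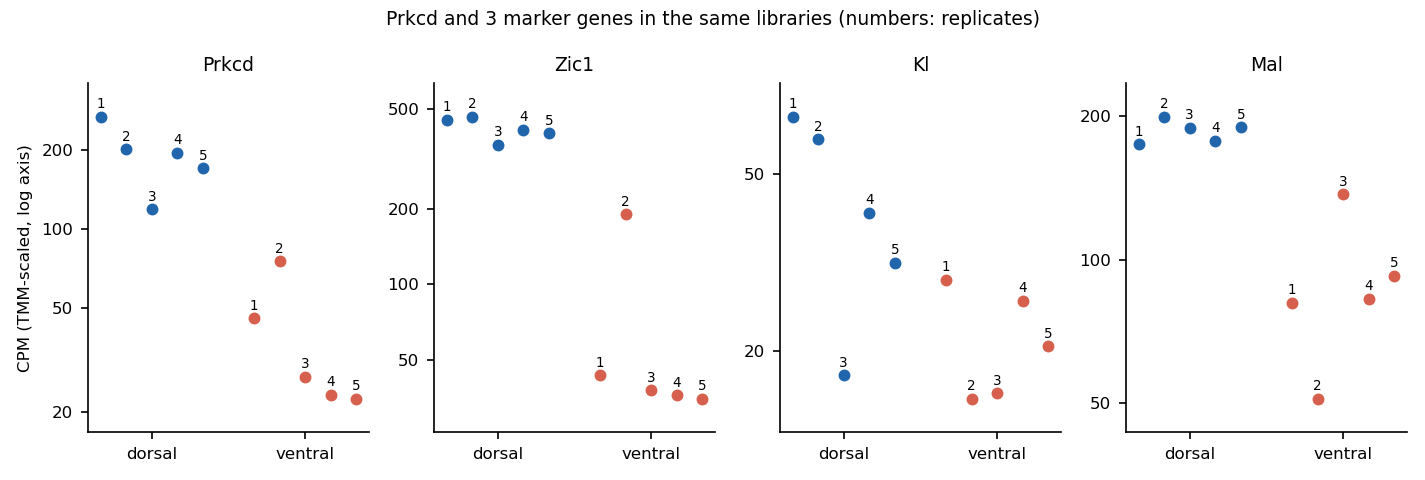
CPM (log axes) of Prkcd and of Zic1 (thalamus list), Kl (choroid plexus list) and Mal (oligodendrocyte list) in the 5 dorsal (blue) and 5 ventral (red) libraries, with replicate numbers. Ventral replicate 2 is the highest ventral library for Prkcd (75.3 CPM) and Zic1 (190 CPM) and the lowest for Kl and Mal.

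The deviations of each gene from its group means over the 10 libraries were compared with those of Prkcd, among the 8762 genes of mean CPM above 10. This is a description over libraries that share depth and preparation. Chchd4, a mitochondrial import gene, was most like Prkcd (Pearson r = 0.971), followed by Ss18l1, Mrps31, Fam199x and Lin7a (r = 0.952), and none of these 5 was called between the groups. The quartiles over all these genes were -0.32 and 0.42. Of the members, Prkca (0.83) and Prkcb (0.72) deviated with Prkcd, Prkce (0.36) less so, and Prkci and Prkcz hardly (0.053 each), while Prkcq and Prkch were below that mean level.

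The other genes of the pathway were read from 6 lists by role, of which 79 of 83 genes were tested. Among them 10 genes (12.7%) passed on the dorsal and 7 (8.86%) on the ventral side, and their median log2 fold change was 0.01, beside -0.0044 over all tested genes. Upstream, the list of Gq subunits and phospholipases C had 1 gene called in each direction among 15. Plcb4, a phospholipase C beta that is also on the thalamus list, had 240 ± 12.6 CPM in the dorsal and 126 ± 25.3 CPM in the ventral group (SD, n = 5 each, log2 fold change 0.94 ± 0.13 SE, edgeR, adjusted p = 0.000183). Plch2, a phospholipase C eta, had 12.3 ± 2.03 and 21.4 ± 5.28 CPM (edgeR, adjusted p = 0.00912). Plcb1, a form known from hippocampal principal cells, had 529 and 575 CPM and was not called, nor were Gnaq and Gna11, which encode the G protein subunits. With the share of pairs on no gene as a covariate neither Plcb4 (0.83 ± 0.25, SE, adjusted p = 0.0548) nor Plch2 (-0.42 ± 0.43, adjusted p = 0.592) was called.

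The enzymes that remove diacylglycerol, the activator of conventional and calcium-independent isoforms, had 5 of 12 genes called dorsal-enriched (41.7%) and none called ventral-enriched, and their median log2 fold change was 0.48. On the ventral side 0 of them had an unadjusted p below 0.05 in edgeR and 0 were called with DESeq2. Diacylglycerol kinases convert the lipid to phosphatidic acid. Dgkh, the most abundant of those called, had 511 ± 14.2 CPM in the dorsal and 254 ± 39.4 CPM in the ventral group (SD, n = 5 each, log2 fold change 1.01 ± 0.10 SE, edgeR, adjusted p = 3.07e-05). Dgki and Dgke had log2 fold changes of 0.67 ± 0.15 and 0.66 ± 0.12 (SE, edgeR, adjusted p = 0.00454 and 0.00156). The lipases Dagla and Daglb convert diacylglycerol to the endocannabinoid 2-arachidonoylglycerol, and both were called, at 0.71 ± 0.24 and 0.85 ± 0.25 (SE, edgeR, adjusted p = 0.0374 and 0.0187). These calls were the least stable of the list, Dagla being kept in 16 and Daglb in 22 of 28 alternative settings, against 28 for Dgkh. With the share of pairs on no gene as a covariate 2 of the 5 calls were kept, those of Dgkh and Dgke, and Dagla stood at 0.10 ± 0.48 (SE). Over 24.1% of their length the exons of Daglb, which was low at 5.66 and 3.12 CPM, overlap those of Rac1 on the other strand, so its counts are uncertain. Dgkb and Dgkg, both abundant, lay on the same side with log2 fold changes of 0.28 ± 0.11 and 0.30 ± 0.12 and were not called.

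Of 12 other receptors of phorbol esters and diacylglycerol, which share the C1 domain with protein kinase C, Chn2 was called dorsal-enriched and Unc13c ventral-enriched. Chn2, which encodes the Rac regulator beta-chimaerin, had 41.6 ± 2.09 CPM in dorsal and 17.7 ± 5.45 CPM in the ventral group (SD, n = 5 each, edgeR, adjusted p = 0.000201). Unc13c, a vesicle priming gene, had 10.2 ± 1.61 and 21.9 ± 3.70 CPM (edgeR, adjusted p = 0.00061, and 0.0689 with the share of pairs on no gene as a covariate). An exon overlap of 10.6% with antisense gene models leaves the counts of Chn2 uncertain. The protein kinase D genes Prkd1, Prkd2 and Prkd3 were low, with dorsal means of 5.41, 1.25 and 10.6 CPM, and were not called. None of the 14 genes for priming kinases, chaperones, phosphatases and scaffolds was called by edgeR's quasi-likelihood test, although 5 had an adjusted p below 0.05 with a smaller change, among them Hsp90aa1, at -0.44 ± 0.14 (SE, adjusted p = 0.0249), which turned to 0.21 ± 0.18 with the share of pairs on no gene as a covariate. Of these 14 genes, 2 on the dorsal and 5 on the ventral side had an unadjusted p below 0.05, and 0 were called with DESeq2.

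Of 15 genes of known substrates, 3 passed on the dorsal side and 2 on the ventral side. The AMPA receptor genes Gria1 and Gria2 were on the dorsal side, Gria1 with 934 ± 26.0 against 613 ± 59.9 CPM and Gria2 with 1143 ± 98.0 against 651 ± 73.0 CPM (SD, n = 5 each). The log2 fold change of Gria2, 0.81 ± 0.10 (SE, edgeR, adjusted p = 7.06e-05), turned to -0.29 after the correction for GC content and exon length. Ppp1r14a, a phosphatase inhibitor that protein kinase C activates, was called at 2.5 ± 1.16 against 0.772 ± 0.793 CPM (edgeR, adjusted p = 0.024), with overlapping groups. Gap43 and Marcksl1, which encode growth cone and membrane-binding proteins, were on the ventral side, Gap43 with 458 ± 52.0 against 741 ± 97.0 CPM (edgeR, adjusted p = 0.000567) and Marcksl1 with 15.3 ± 2.33 against 25.6 ± 3.62 CPM (edgeR, adjusted p = 0.0042). With the share of pairs on no gene as a covariate the calls of Gria1 and Gria2 were kept, and Gap43 (-0.37 ± 0.20), Marcksl1 (-0.32 ± 0.32) and Ppp1r14a (0.08 ± 0.93, SE) were not called.

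Partners of the atypical isoforms had 3 of 11 tested genes called ventral-enriched (27.3%) and none dorsal-enriched by edgeR. On the dorsal side 2 of them had an unadjusted p below 0.05 and 1 was called with DESeq2. Sqstm1, which encodes p62, the autophagy adaptor that binds atypical isoforms through its PB1 domain, had 643 ± 78.0 CPM in the dorsal and 1950 ± 138 CPM in the ventral group (SD, n = 5 each), 3.03-fold higher on the ventral side (log2 fold change -1.6 ± 0.10 SE, edgeR, adjusted p = 8.25e-07). Its exons overlap Mrnip on the other strand over 17.3% of their length, so its counts are uncertain to that extent. Nbr1, a related adaptor, had -0.63 ± 0.10 (SE, adjusted p = 0.000583) and the polarity gene Pard6a -0.98 ± 0.22 (SE, adjusted p = 0.00484). With the share of pairs on no gene as a covariate the call of Sqstm1 was kept, at -1.32 ± 0.16 (SE), while Nbr1 (-0.51 ± 0.20) and Pard6a (-1.45 ± 0.46) were not called. Pard3 and Pard3b, polarity scaffolds of the same complex, had 0.39 ± 0.21 and 1.0 ± 0.37 (SE) and were not called.

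**Figure D5:**
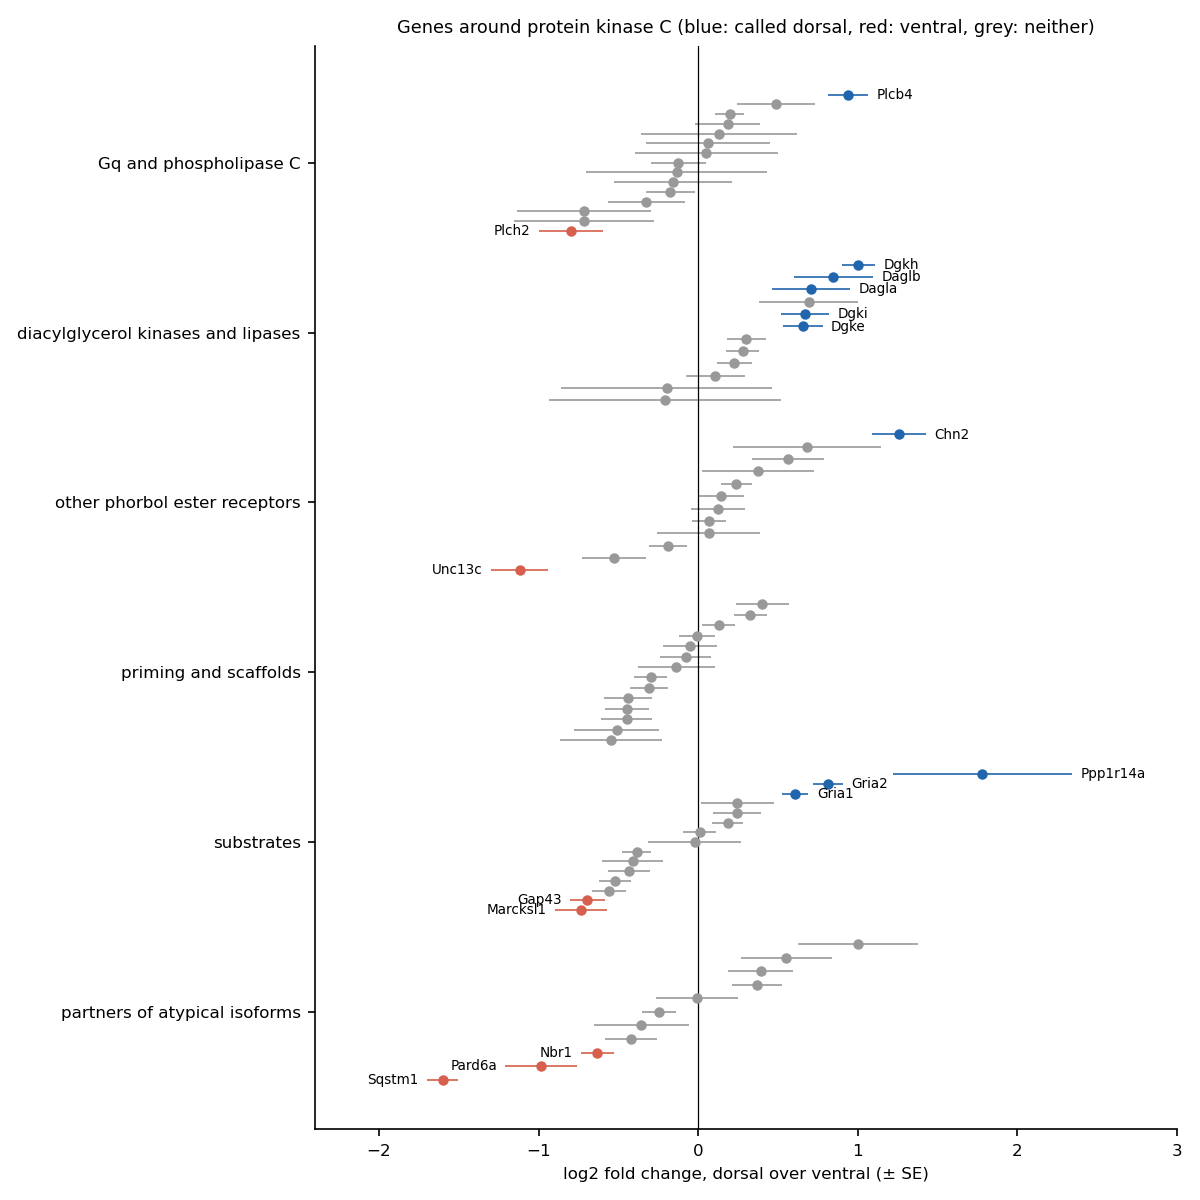
Log2 fold changes (dorsal over ventral, bars for standard errors) for the 79 tested genes of the 6 lists, 1 point per gene, blue where called dorsal-enriched, red where called ventral-enriched and grey where not called. The named points on the right in the list of diacylglycerol kinases and lipases are its 5 called genes, and the 3 named points on the left in the last list are the called partners of the atypical isoforms.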

How the data were processed

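Per the labels and the study's methods, TRAP RNA was amplified with the Ovation kit, made into TruSeq libraries and sequenced as paired ends of 50 bp. The authors aligned the reads to GRCm38 and counted pairs per Ensembl gene, and the submitters' processing notes name STAR 2.5.2b and HTSeq 0.7.2. The deposited values are raw counts per gene, 1 file per library. The annotation release and the use of strand are not given in the sources used here. Symbols, lengths and overlaps came from GENCODE release M21, which holds 54723 of the 54838 identifiers.

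From these counts, R 4.3.3 and edgeR 4.0.16 were used with a filter of CPM above 1 in at least 2 libraries, TMM scaling and the quasi-likelihood test of dorsal against ventral over all 16806 genes with Benjamini-Hochberg adjustment. Summed marker levels were compared by two-sided exact permutation tests. CPM per kilobase used the union of exons. The main edgeR test across genes was tried on simulated data, and the other tests and fits were not. The alternatives used DESeq2 1.42.0, other scalings, filters and tests, the replicate number as a block, an offset for GC content and length fitted with mgcv 1.9.3, the share of pairs on no gene as a covariate, and each library left out.

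The members and lists were chosen with earlier results of these data known. Genes were named by a rule: all members, the called genes of each pathway list (the 4 of largest change where more were called), the 3 most abundant and the 3 most changed markers of each list whose sum differed, and the 5 genes most like Prkcd. Genes outside it were chosen after their values were seen, among them Dgke, Gria1, Kl, Clic6, Isl1, Crh, and those named as not called. Some genes that the rule names are not reported here. Fold changes are edgeR's, and their standard errors follow from the F statistic of the test (absolute log2 fold change over its root). No library was a duplicate of another in its group, the chi-square over genes being 4.36 to 45.1 per degree of freedom. Dorsal and ventral pools shared mice, the sources used here do not say which, and p-values treat the pools as independent and cover the spread between them. The level of 3 counts covers counting error only, and amplified reads are not independent molecules. The SDs and standard errors include the spread between pools.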

Additional observations from a re-analysis of the deposited data

Results flagged for a closer look

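In 6 of the 46 groups of 5 libraries examined, 1 library was separated from the nearest other by more than 0.71 of the whole range of the group, Dixon's limit for 5 values, and chance alone gives about 1 in 20. Prkca in dorsal replicate 1 had 472 CPM, above 369 to 397 CPM in the other dorsal libraries. Prkce in ventral replicate 3 had 799.7 CPM, above 674 to 708 CPM. Prkci in the same library had 238 CPM, above 146 to 162 CPM, and Prkcz there had 51.3 CPM, below 77.7 to 81.9 CPM. The summed habenula markers of ventral replicate 2 were at 37.6 CPM, below 66.6 to 76.5 CPM in the other ventral libraries. The summed central amygdala markers of dorsal replicate 2 were at 93.5 CPM, above 62.9 to 67.2 CPM in the other dorsal libraries.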

How the results depend on the processing

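The call of Prkcd held in all 28 alternatives, with log2 fold changes of 2.17 to 3.28, and those of Prkca and Prkci in 25 each. With 1 library left out, 1 to 2 members were called dorsal-enriched (1 without dorsal replicate 1) and 0 to 1 ventral-enriched (0 without ventral replicate 3, and 0 without ventral replicates 2 and 3 together, chosen after seeing the data). Over all genes these refits gave 2103 to 2670 dorsal-enriched and 1213 to 1815 ventral-enriched genes. The correction for GC content and length gave 1 dorsal-enriched member, 11 ventral-enriched pathway genes and 3077 ventral-enriched genes in all, and turned Gria2 to -0.29. With the replicate block added to it these were 1, 11, 3138 and -0.29. With the share of pairs on no gene as a covariate, 834 and 339 genes, 0 ventral-enriched members, 5 dorsal-enriched and 1 ventral-enriched pathway genes and 1 dorsal-enriched thalamus marker were called. An adjusted p below 0.01 gave 1498 and 897 genes, protein-coding genes alone gave 1646 dorsal-enriched genes, which is fewer genes tested, and no fold threshold gave 15 ventral-enriched pathway genes. Where not said, the cause was not tested. The replicate block alone gave 2656 and 1674 genes and changed no call of a member, Prkcd standing at 2.40. Same-numbered libraries deviated together with correlations of -0.0317 to 0.0695, 3 of 10 libraries being most like their own number, so the numbers were not taken as pairs. Depth limits Prkch and, less so, Prkcq.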
